A study of Mus musculus with 2 samples.

Results

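Fibroblasts of the mouse ciliary body dissection that carried UMIs (unique molecular identifiers, 1 per captured RNA molecule) of both Chil1 and Myoc were described here. They had been proposed as trabecular meshwork-like cells. They were chosen by their own counts: at least 500 detected genes, at most 30% mitochondrial UMIs, at least 5 UMIs of Dcn and Col1a2 together, at least 3 of Chil1, at least 1 of Myoc, none of Pecam1 or Cdh5 and at most 1 of C1qa and C1qb together. The rule found 393 cell barcodes among 9331 that passed the first 2 limits, 257 of 3865 in library 1 and 136 of 5466 in library 2. They are called double-positive fibroblasts below. The study was exploratory and without treatment. It made 2 droplet-based single-cell RNA libraries from ciliary epithelium of wild-type C57BL/6 mice at postnatal day 35, digested with collagenase. Each library is 1 pool of eyes, 3 sets for library 1 and either 3 or 4 sets for library 2, since the labels differ. There is thus 1 group with n = 2 libraries, and neither eyes nor animals can be told apart within a pool.

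The trabecular meshwork is a sieve of matrix-covered beams in the angle between iris and cornea, through which aqueous humour leaves the eye. The cells on the beams make and clear matrix, take up debris, and contract or relax, and so set the resistance to outflow. Myocilin, the product of Myoc, is secreted by these cells, and mutant forms of it cause open-angle glaucoma. Chitinase-3-like protein 1 (Chil1) is a secreted lectin, angiopoietin-like 7 (Angptl7) a secreted matrix-associated factor, matrix Gla protein (Mgp) an inhibitor of calcification, and decorin (Dcn) a small proteoglycan of collagen fibrils.

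The double-positive fibroblasts held 6.65% of the kept barcodes of library 1 (exact Clopper-Pearson 95% interval 5.88% to 7.48%) and 2.49% of those of library 2 (2.09% to 2.94%). Against all barcodes that met the fibroblast limits alone, 1278 and 643, the shares were 20.1% (17.9% to 22.4%) and 21.2% (18.1% to 24.5%). The share among fibroblasts thus had overlapping intervals in the libraries, and the share among all barcodes did not. The intervals cover counting error only.

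The genes that chose the cells are given as a description, without a test. Levels below are CPM, the UMIs of a gene per 1e+06 UMIs summed over a group, first for library 1 and then for library 2. Chil1 (ENSMUSG00000064246, chromosome 1, 134182176 to 134190181, in the mouse build GRCm38) stood at 7626 and 5512 CPM. Single double-positive fibroblasts held between 3 and 590 Chil1 UMIs in library 1, with a median of 34, and between 3 and 443 in library 2, with a median of 23. Myoc (ENSMUSG00000026697, chromosome 1, 162639155 to 162649693) stood at 5141 and 6035 CPM, with a median of 23 UMIs per cell in library 1 and 44 in library 2. Dcn reached 24298 and 20703 CPM and Col1a2, a chain of fibrillar type I collagen, 6706 and 6350.0 CPM. Fibroblasts with neither gene at these limits, 739 and 342 barcodes called double-negative below, held 36.6 and 31.9 CPM of Chil1 and 0 of Myoc.

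Angptl7 and Mgp, the markers of the proposed name that the rule did not use, differed in how widely they were found. Angptl7 (ENSMUSG00000028989, chromosome 4, 148495183 to 148500460) stood at 737 and 478 CPM in double-positive and 126 and 40.6 CPM in double-negative fibroblasts. It was spread unevenly: 35.0% of the double-positive fibroblasts of library 1 (90 of 257) and 32.4% of library 2 (44 of 136) held an Angptl7 UMI, the median cell held 0, and the highest held 104 and 91. Mgp (ENSMUSG00000030218, chromosome 6, 136872435 to 136875823) was present in 98.8% and 99.3% of them, with 4565 and 3368 CPM against 3123 and 2299.7 in double-negative fibroblasts. Double-positive fibroblasts were therefore higher in Angptl7 in both libraries, but Mgp did not set them apart: fibroblasts with Chil1 and without Myoc held more of it, 7402 and 5109 CPM. No p is given for these 2 genes, since they belong to the name under which the cells were proposed.

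Barcodes of other cell types held a low level of the same genes. Rods, macrophages, endothelial cells and pigment cells, each picked by their own genes and with at most 1 UMI of Dcn and Col1a2, held between 3.64 and 34.6 CPM of Chil1, between 1.82 and 19.4 CPM of Myoc and at most 3.48 CPM of Angptl7. Double-negative fibroblasts held 36.6 and 31.9 CPM of Chil1, capped by their own limit of fewer than 3 UMIs. That was close to the highest of these types, 34.6 CPM in rods of library 1 and 31.7 in pigment cells of library 2. In rods, 3.60% and 5.98% of barcodes had a Chil1 UMI, at a median of 1153.5 and 1964 UMIs per barcode against 7568 and 8116 in double-positive fibroblasts. Thinned to 2000 UMIs per barcode, with 12 and 7 shallower double-positive fibroblasts and 329 and 1111 rods left out, 93.9% and 94.6% of double-positive fibroblasts and 1.74% and 2.59% of rods kept a Chil1 UMI. The gap in Chil1 and Myoc was fixed by the rule, which selected on them, and Angptl7 alone of the 3 was not used in it.

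**Figure D1:**
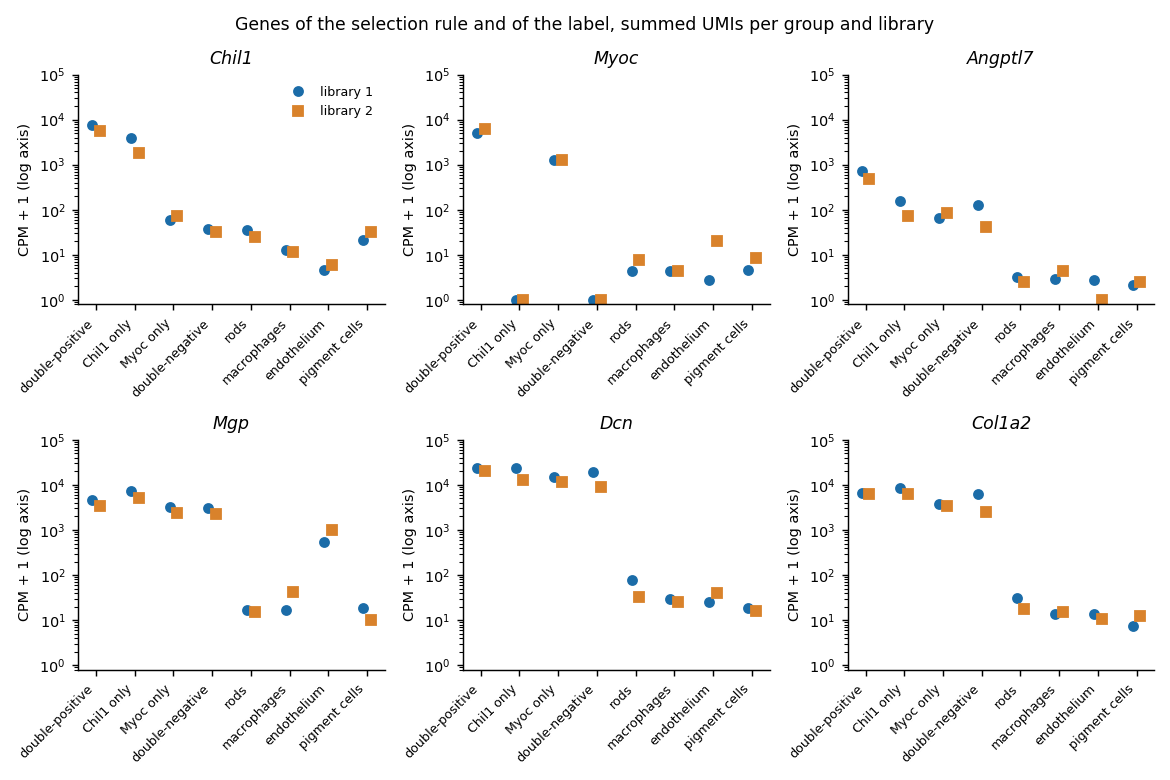
CPM + 1 on a log axis of the 4 positive genes of the rule (Chil1, Myoc, Dcn, Col1a2) and of Angptl7 and Mgp in 8 groups of barcodes. Each point is the sum over a group in library 1 (circles) or library 2 (squares). Dcn and Col1a2 are high in all 4 fibroblast groups, Chil1 and Myoc follow the limits that defined the groups, and Angptl7 is highest in the double-positive fibroblasts.

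With Chil1 at exactly 3 UMIs, 19 and 10 barcodes were just inside, and with Chil1 at 2 and Myoc present, 17 and 20 were just outside. With Myoc at exactly 1 UMI, 25 and 6 were just inside. Just outside that limit, fibroblasts with Chil1 at or above its own and no Myoc numbered 102 and 39, with 3831 and 1834 CPM of Chil1 and 154 and 70.6 of Angptl7. Those with Myoc and Chil1 under its limit numbered 180 and 126, with 1282 and 1274 CPM of Myoc and 64.3 and 83.4 of Angptl7. A further 22 and 14 barcodes met every limit but that on the endothelial genes Pecam1 and Cdh5, and 5 and 7 every limit but that on the macrophage genes C1qa and C1qb. Double-positive fibroblasts with at least 10 Chil1 and 5 Myoc UMIs, 159 and 92 of them, held 976 and 669 CPM of Angptl7.

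Library 1 held 4764 barcodes with 22510387 UMIs and library 2 held 6220 with 30683405. Double-positive fibroblasts were deeper than double-negative ones, with a median of 7568 and 8116 UMIs against 4648 and 4452, and of 2452 and 2640 detected genes against 1977 and 1976. Their median mitochondrial share was 4.28% and 5.88%, against 3.95% and 5.58%. The libraries had 11 barcodes in common, of which 8 passed the first limits. Of the double-positive fibroblasts, 2 of library 1 had a barcode that also occurred in library 2, and none the other way round. RNA of rods was present throughout library 2: the 5 rod markers summed to 199 and 2516 CPM in double-positive and 226 and 3619.8 CPM in double-negative fibroblasts, and only 38 of the 136 double-positive fibroblasts of library 2 had fewer than 5 summed UMIs of 4 rod genes.

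Markers of other cells that the dissection could hold were set beside the fibroblast groups. The 6 macrophage markers summed to 33.4 and 30.5 CPM, against 54.0 and 83.6 in double-negative fibroblasts, none of them at 0. C1qa and C1qb are among them and were capped by the rule in both groups, so these sums are partly fixed by it. The 5 pigment cell markers summed to 1488 and 909.8 CPM, against 1789.5 and 2261. The 5 markers of smooth muscle and pericytes summed to 951 and 1109 CPM, against 1131 and 557. Of these, the pericyte gene Rgs5 stood at 243 and 272 CPM, against 123 and 95.7, and 31.5% and 30.1% of double-positive but 18.0% and 9.94% of double-negative fibroblasts, which were shallower, had 5 or more UMIs of the 5 markers. Schwann cell markers summed to 19.5 and 9.91 CPM, against 56.9 and 41.6, with 1 of 3 at 0 in each library. The 3 markers set for corneal and scleral stroma summed to 1399.8 and 1333 CPM, against 376 and 137. Of these, Chad made up 1169 and 1155 CPM, Aldh3a1 227 and 178 CPM, and Kera 3.25 and 0. The part of these cells' RNA in the differences below was not tested.

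The comparison of double-positive with double-negative fibroblasts asks what else set the cells apart beside the genes that chose them. Higher in double-positive fibroblasts were Chad, Tnmd, Thbs4 and Comp, whose products are known from the matrix and cells of tendon and cartilage. Lower were Kera of the corneal stroma, the chemokines Ccl11 and Cxcl12, the matrix gene Dpt, and Wnt6. No list of tendon or cartilage genes was counted. Thbs4 and Comp were higher still in fibroblasts outside the double-positive group with at least 2 Kera UMIs. Of 11718 genes tested, 274 were higher (2.34%) and 326 lower (2.78%), 5.12% in all, and 597 of the 600 had the same direction in each library alone. A gene passed the test at an adjusted p under 0.05 (edgeR quasi-likelihood test with Benjamini-Hochberg adjustment) and a log2 fold change of at least 1 in size. Values in brackets after a level are log2 fold changes with their SE, which was worked out from the F statistic of the test. The 8 genes of the rule, Angptl7, Mgp and mitochondrial genes were left out of the tested set, and the median log2 fold change over all genes tested was -0.01. The fit rested on 6 sums, 3 groups in each of 2 pools, with the library as a block and 2 residual degrees of freedom. Its p-values measure how alike the differences among the 3 groups were in the 2 pools. The spread included the single-positive sums and was shared in part between genes. It does not cover how eyes or animals vary. Without the block, Chad alone passed the test. DESeq2 called 202 genes higher and 158 lower, and the fit on barcodes with 3000 to 20000 UMIs, which brings the depths of the groups closer, 346 and 522.

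Chondroadherin (Chad; ENSMUSG00000039084, chromosome 11, 94565047 to 94569127), a small leucine-rich protein of cartilage that binds collagen, stood furthest apart. It measured 1169 and 1155 CPM in double-positive and 15.2 and 19.3 CPM in double-negative fibroblasts. That is a log2 fold change of 6.31 ± 0.19 (SE; adjusted p = 7.70e-08). Carbonic anhydrase 3 (Car3), a cytosolic enzyme best known from muscle and fat, stood at 204 and 52.6 against 11.8 and 2.42 CPM (4.32 ± 0.18). Its level was lower in library 2 in both groups. The secreted protein Bpifb1 measured 185 and 87.6 against 10.3 and 8.70 CPM (4.07 ± 0.22), and Crtac1, a secreted cartilage protein, 41.3 and 22.1 against 2.95 and 2.90 CPM (3.68 ± 0.35). Tenomodulin (Tnmd; ENSMUSG00000031250, chromosome X, 133850980 to 133865577), a membrane protein of tendon and ligament cells, reached 1684 and 1161 against 278 and 118 CPM, a log2 fold change of 3.12 ± 0.17 (adjusted p = 2.87e-06). Thrombospondin 4 (Thbs4; ENSMUSG00000021702, chromosome 13, 92751590 to 92794818), a matrix protein of tendon, reached 743 and 978 against 136 and 85.5 CPM (3.11 ± 0.24, adjusted p = 2.57e-05). For each of these 6 genes the lower of the 2 double-positive values lay above both double-negative ones. They had been chosen for a large rise in both libraries, so this gap follows largely from the choice. Of all genes tested, 2.34% were called higher, which is not the share with such a gap.

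Of the other genes with the largest rises, Tmem255b, Arhgdig, Mia, Nell2 and Gpha2 lay at lower levels, between 14.4 and 162 CPM in double-positive fibroblasts, with log2 fold changes between 2.96 and 3.26. The rise was wider in library 1 for Arhgdig (31.1 and 24.4 against 1.72 and 6.77 CPM, a log2 difference of 3.76 in library 1 alone and 1.93 in library 2) and Gpha2 (162 and 132 against 15.2 and 33.3 CPM, 3.49 and 2.18). Against all other fibroblasts the log2 fold change of Gpha2 was 1.44. Gpha2 encodes a subunit of a glycoprotein hormone and Nell2 a secreted epidermal growth factor-like protein. Tmem255b overlaps Gas6 on the other strand, which also rose. Ltbp2 (ENSMUSG00000002020, chromosome 12, 84783212 to 84876532), which binds microfibrils and is mutated in primary congenital glaucoma, stood at 349 and 232 against 46.1 and 38.7 CPM (2.97 ± 0.14, adjusted p = 1.44e-06). The gene 1500015O10Rik, also called Ecrg4, was chosen after its values had been seen. It was among the 15 most abundant genes of the double-positive fibroblasts outside mitochondrial and ribosomal genes, with 4284 and 3881 against 335 and 255 CPM (4.01 ± 0.13).

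Several of the genes that fell furthest were at or near 0 in double-positive fibroblasts. Wnt10a, a Wnt ligand, had 1 UMI in double-positive and 118 in double-negative fibroblasts, a ratio of 66.6 with a counting interval of 11.7 to 2652. Myl10 had 2 and 198 UMIs (ratio 55.9, 15.3 to 464), Iqcj 2 and 125 (35.3, 9.56 to 294), Abcg5 2 and 111 (31.3, 8.47 to 262), Sema3g 2 and 92 (26.0, 6.98 to 218) and Adamts16 1 and 52 (29.3, 5.04 to 1181). Better counted were the eosinophil-attracting chemokine Ccl11, with 2.32 and 3.81 against 53.0 and 295 CPM (log2 fold change -5.36 ± 0.28, adjusted p = 2.59e-06), and dermatopontin (Dpt), a matrix protein of many fibroblasts, with 2.32 and 3.05 against 107 and 55.6 CPM (-4.85 ± 0.28). Keratocan (Kera; ENSMUSG00000019932, chromosome 10, 97606879 to 97613692), the proteoglycan of corneal keratocytes, measured 3.25 and 0 against 50.3 and 35.3 CPM (-4.23 ± 0.49). The alcohol dehydrogenase gene Adh7 (1.39 and 3.05 against 85.2 and 13.0 CPM) and the glutathione transferase gene Gsta2 (3.25 and 0.762 against 80.0 and 10.1 CPM) fell further in library 1 than in library 2.

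Of the 90 genes named with a test, 69 kept their call in all 13 alternatives with the library as a term that tested them. With DESeq2, Myl10, Adamts16, Spock3, Adamts4, Hgf, Adra2a, Ptger4, Ptgs1, Lmx1b and Abca8a did not pass. Against all other fibroblasts, single-positive ones included, Adamts4, Piezo2, Lmx1b, Foxp2, Gas6 and Vit did not pass. Among barcodes with at most 15% mitochondrial UMIs, Col18a1, Cp and Mgst1 did not, and without barcodes rich in rod UMIs Adamts4, Piezo2, Des, Ptger4, Ptgs1, Lmx1b and Mgst1 did not. A stricter gate ended the call of Spock3, Des, Adra2a, Ptgs1 and Cp, and a looser one that of Myl10, Col18a1, Adamts4, Lmx1b and Mgst1. Ptgs1 was also lost without the single-positive sums and Lmx1b without barcodes shared by the libraries. Thinning to 2000 UMIs left 80 of the 90 genes to test and ended the call of Has2, Adamts4, Sfrp2 and Gdf15, so 76 kept it. Without barcodes rich in rod UMIs, 86 of the 90 were tested.

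**Figure D2:**
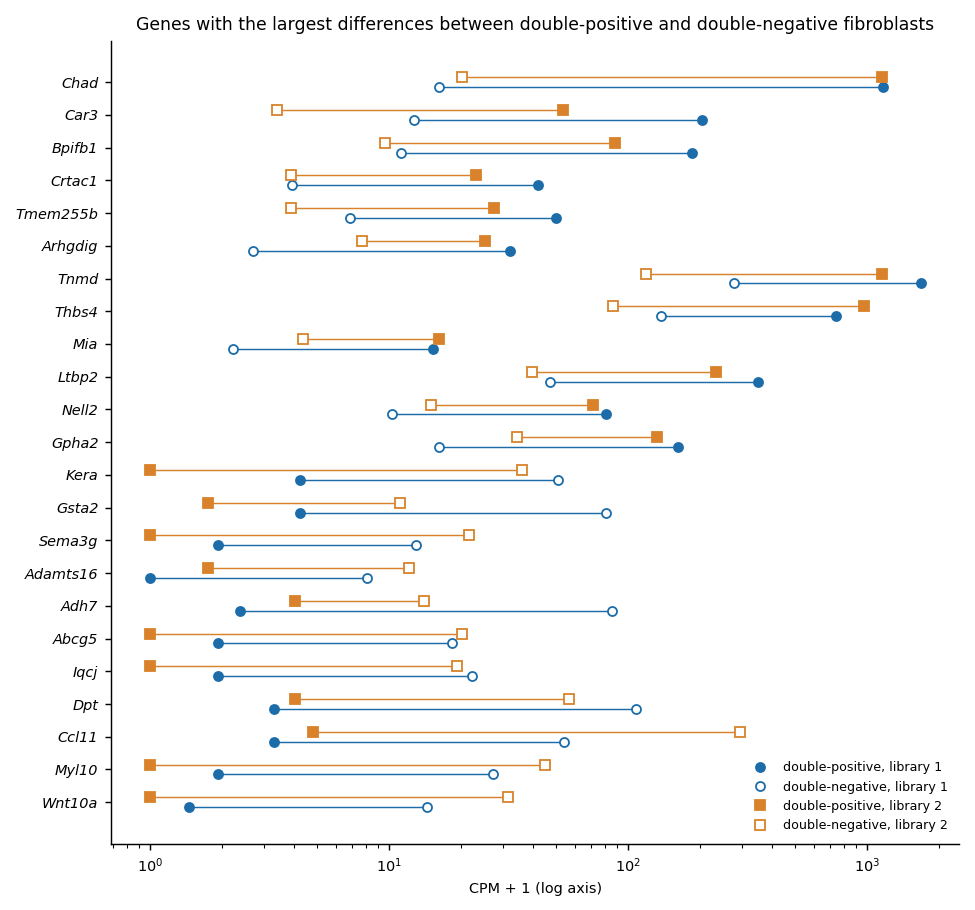
CPM + 1 on a log axis of the 12 genes with the largest rise (top) and 11 with the largest falls (bottom) among the named genes, in double-positive (filled) and double-negative (open) fibroblasts of library 1 (circles) and library 2 (squares). Lines join the groups of 1 library. Chad shows the widest gap of the higher genes, 1169 and 1155 against 15.2 and 19.3 CPM, and several of the lower genes are at or near 0 in double-positive fibroblasts.

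The name under which the cells had been proposed was set against a list of 24 genes known from trabecular meshwork cells. Angptl7 and Mgp belong to the name, and Tmeff2 and Bmp5 had too few counts to test. Of the other 20, 3 were higher and 8 lower. Background shares were 2.34% and 2.78%, and the median log2 fold change of the 20 was -0.58 against -0.01 over all genes. The higher genes were Tnmd, Nell2 and fibromodulin (Fmod), a proteoglycan of collagen fibrils with 1811 and 1734 against 796 and 551 CPM (1.61 ± 0.14). Of the lower ones, Rspo4, which amplifies Wnt signals, had 0 UMIs and was at least 12.4-fold lower. Lypd1, a membrane-anchored modulator of nicotinic receptors, measured 37.6 and 21.3 against 267 and 123 CPM (-2.53 ± 0.15, adjusted p = 4.38e-06). The methyltransferase gene Inmt measured 3.71 and 11.4 against 63.6 and 166 CPM (-3.72 ± 0.27). Crym, which binds thyroid hormone, measured 9.29 and 14.5 against 67.0 and 65.2 CPM (-2.34 ± 0.21). The transcription factor genes Nr2f1 (40.4 and 67.1 against 227 and 299.6 CPM, -2.12 ± 0.14) and Tfap2b (85.9 and 64.8 against 286 and 295 CPM, -1.74 ± 0.14), which act in neural crest-derived tissue of the eye, were lower, and so were Cyp1b1 (-1.65) and Lmx1b (-1.03). Both of these are mutated in forms of glaucoma. Lmx1b lost its call in 5 of 13 alternatives that kept the library as a term.

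The other 9 genes of the list did not pass the test, Foxc1 and Igfbp7 because their log2 fold changes of -0.48 and 0.46 were under 1 in size. Among the 9, the forkhead gene Foxc1 stood at 113 and 150.1 against 165 and 266 CPM and Ppargc1a at 17.2 and 24.4 against 11.3 and 19.3. The apolipoprotein gene Apod stood at 959.6 and 704 against 1058 and 692 CPM, the endothelin gene Edn3 at 259 and 211 against 329.7 and 384, and the prostaglandin D synthase gene Ptgds at 839 and 2208 against 3242 and 2452. The gap in Ptgds was wide in library 1 only. The data thus went in part against the name: Chil1 and Myoc, on which the cells had been selected, and Angptl7 were high, while 8 of the 11 list genes that passed the test were lower. They are therefore called by their rule. The list had been written with earlier results of these data known, and the groups were compared only with other fibroblasts of the same dissection.

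**Figure D3:**
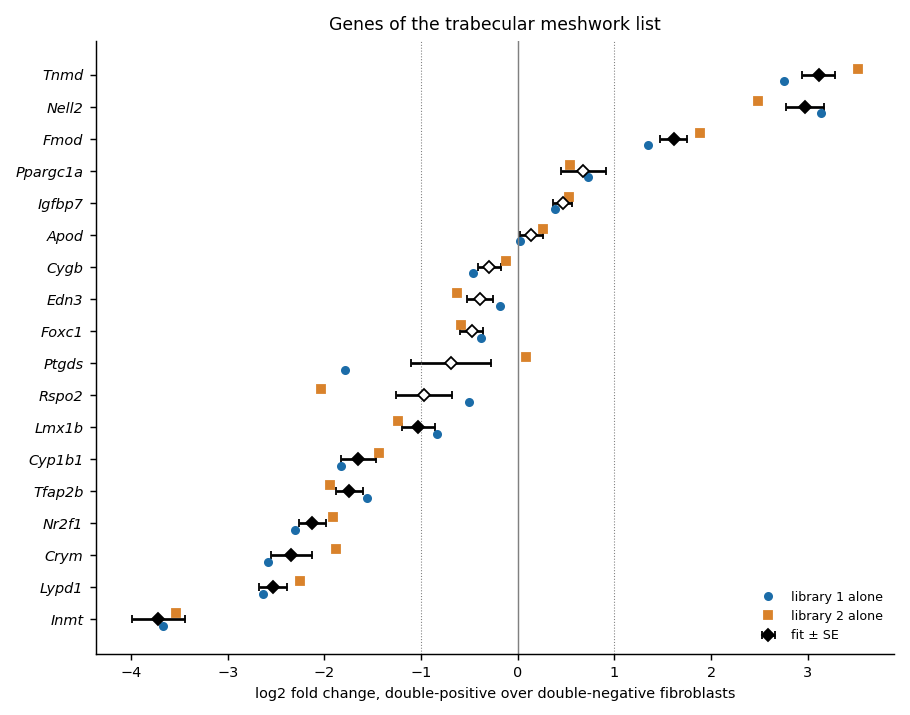
Log2 fold change between double-positive and double-negative fibroblasts for 18 of the 20 tested genes of the trabecular meshwork list; Rspo4, at 0 UMIs in double-positive fibroblasts, is not drawn. Diamonds give the fit with its SE, filled where the gene passed the test, and circles and squares give the difference of log2 CPM in library 1 and library 2 alone. Tnmd, Nell2 and Fmod lie above 1 and 7 genes from Lmx1b to Inmt below -1.

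Small leucine-rich proteoglycans, which bind collagen fibrils, and hyaluronan genes gave 8 higher and 4 lower of 20 tested. Those were 40% and 20% of the list, against 2.34% and 2.78% of all genes. Beside Chad and Fmod, the higher ones were osteomodulin (Omd, 412 and 298 against 148 and 43.0 CPM, 2.20 ± 0.24), Ecm2 (106 and 114 against 42.7 and 27.1 CPM, 1.8 ± 0.18), Aspn, Prelp, Bgn and Ogn. Kera and Epyc, of the same protein family, were lower. The other lower genes were the hyaluronan synthase gene Has2 (3.25 and 4.57 against 18.4 and 29.5 CPM, -2.37 ± 0.36) and Tnfaip6 (6.96 and 52.6 against 45.4 and 132 CPM, -1.54 ± 0.25), whose product links hyaluronan to proteins. The median of the list was 0.17. Omd and Ecm2 both overlap Cenpp on the other strand.

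Matricellular and elastic fibre genes gave 14 higher and 5 lower of 43, with a median of 0.32. Their shares were 32.6% and 11.6%, against 2.34% and 2.78% of all genes. Cartilage oligomeric matrix protein (Comp; ENSMUSG00000031849, chromosome 8, 70373558 to 70382066) stood at 203 and 305 against 28.5 and 51.7 CPM (2.90 ± 0.17, adjusted p = 4.24e-06). Thrombospondin 1 (Thbs1), which binds matrix and releases active TGF-beta, stood at 2009.8 and 2133 against 282 and 425 CPM (2.79 ± 0.13). Beside these, Ltbp2 and Thbs4, the genes Cilp2, Nov, Fn1, Fbln5, Sparc, Ltbp4, Loxl1, Ccdc80, Lox and Smoc1 were higher. They include the genes of fibronectin (Fn1), of fibulin 5 in elastic fibres (Fbln5) and of the cross-linking enzymes Lox and Loxl1. Tenascin X (Tnxb, 8.36 and 6.10 against 90.3 and 51.7 CPM, -3.12 ± 0.20), the fibulin gene Efemp1 (27.4 and 57.9 against 194 and 179 CPM, -2.03 ± 0.23) and Spock3 (-1.86 ± 0.39) were lower, with Fbln7 and Sparcl1.

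Of 20 collagen genes, 5 were higher and 3 lower, 25% and 15% against 2.34% and 2.78% of all genes (median 0.05). The short-chain collagens of the cornea's inner basement membrane, Col8a1 (571 and 408 against 121 and 115 CPM, 2.25 ± 0.14) and Col8a2 (437 and 322 against 189.5 and 145 CPM, 1.38 ± 0.12), were both higher, with Col16a1 (1.43 ± 0.14), Col12a1 and Col11a1. Col23a1 (43.2 and 54.1 against 195 and 229 CPM, -1.93 ± 0.14), Col18a1 and Col6a6 were lower. Col18a1 (10.2 and 76.2 against 62.6 and 131 CPM, -1.19 ± 0.32) fell mostly in library 1, with a log2 difference of -2.36 there and -0.54 in library 2. Col1a1, the partner chain of Col1a2, did not pass the test at 6376 and 6179 against 7279 and 3034 CPM.

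Of 31 proteases and their inhibitors, 8 were higher and 2 lower, 25.8% and 6.45% against 2.34% and 2.78% of all genes (median -0.02). Timp3, a matrix-bound inhibitor of metalloproteinases, stood at 2925 and 3039 against 933 and 1358 CPM (1.61 ± 0.12). Pigment epithelium-derived factor (Serpinf1), which restrains vessel growth, stood at 3956 and 3047 against 1887 and 916 CPM (1.60 ± 0.15), and Adamtsl3, a protease-like protein of microfibrils, at 107 and 88.4 against 17.4 and 16.9 CPM (2.71 ± 0.17). Timp1, Timp2, Pcolce and Cpxm1 were also higher. Stromelysin 1 (Mmp3) fell from 1901 and 865 CPM in double-negative to 143 and 231 CPM in double-positive fibroblasts (-2.59 ± 0.34), and Adamts4 was lower (-1.16 ± 0.25) but lost its call in 5 of the 13 alternatives. Cst3, an inhibitor of cathepsins outside the lists, stood at 9494 and 8283 against 2624 and 1849 CPM (2.21 ± 0.12). With mitochondrial and ribosomal genes left out, it was the fourth most abundant gene of the double-positive fibroblasts.

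Signals of the Wnt pathway, which steers growth and fate of mesenchyme, gave 3 higher and 9 lower of 31 tested (median -0.23). These were 9.68% and 29.0% of the list, against 2.34% and 2.78% of all genes. DESeq2 called 3 higher and 5 lower. Among ligands, Wnt6 (8.36 and 6.10 against 98.7 and 101 CPM, -3.55 ± 0.24, adjusted p = 1.29e-05) and Wnt4 (5.11 and 3.81 against 29.0 and 35.8 CPM, -2.56 ± 0.31) were lower, with Wnt2. The amplifiers Rspo1, Rspo3 and Rspo4 were lower too. Of the secreted antagonists, Sfrp4 was lower (1.39 and 0.762 against 26.0 and 17.4 CPM, -4.06 ± 0.42), while Wif1 (78.9 and 83.1 against 24.8 and 13.0 CPM, 2.19 ± 0.27) and Sfrp2 (873 and 513 against 498 and 247 CPM, 1.13 ± 0.12) were higher. The receptor Fzd1 was higher (211 and 177 against 86.2 and 75.4 CPM, 1.47 ± 0.12), and the pathway targets Axin2 and Nkd1 were lower.

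Of 32 genes of TGF-beta and BMP signalling, which drive matrix production, 6 were higher and 1 lower (median 0.26). They made up 18.75% and 3.1% of the list, against 2.34% and 2.78% of all genes. The share of lower genes was thus near that over all genes here, but the count moved with the setting. It was 4 against all other fibroblasts and 4 among barcodes with 3000 to 20000 UMIs. After thinning to 2000 UMIs it was 2, and with DESeq2 it was 1. The ligands Tgfb3 (222 and 257 against 92.3 and 76.3 CPM, 1.70 ± 0.15), Inhba (19.0 and 35.0 against 4.42 and 5.80 CPM, 2.52 ± 0.29) and Tgfb2 were higher. So were the extracellular antagonists follistatin (Fst, 109 and 54.9 against 23.6 and 10.6 CPM, 2.42 ± 0.18) and Chrdl1. Gdf15 was lower (1.39 and 9.91 against 11.5 and 49.8 CPM, -2.29 ± 0.32). Of 12 genes of insulin-like growth factor signalling (median 0.40), Igfbp6, which binds IGF-II, alone passed the test at 2359 and 2213 against 757 and 317 CPM (2.41 ± 0.23). That is 8.33% of the list, and a count of 1 gene does not set the list apart.

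Growth factors acting on vessels gave 3 higher and 4 lower of 30 tested, 10% and 13.3% against 2.34% and 2.78% of all genes (median -0.15). Fgf18 (62.2 and 35.8 against 20.4 and 4.35 CPM, 2.13 ± 0.26), the large matrix protein gene Svep1 (201 and 139 against 81.7 and 40.6 CPM, 1.68 ± 0.15) and the guidance cue Sema3d (1.27 ± 0.19) were higher. Angptl1 (-1.97 ± 0.20), hepatocyte growth factor (Hgf, 0.929 and 2.29 against 10.6 and 13.0 CPM, -2.75 ± 0.51) and Cxcl12 were lower, with Pgf. Cxcl12, a chemokine that holds leukocytes and stem cells in place, measured 108 and 91.4 against 922 and 775 CPM (-2.89 ± 0.13, adjusted p = 8.45e-07). Of 23 cytokine and chemokine genes, 2 were higher and 6 lower, 8.70% and 26.1% of the list (median -0.53). With DESeq2 and after thinning to 2000 UMIs, 0 were higher. Ccl19 (11.1 and 2.29 against 58.4 and 21.3 CPM, -2.34 ± 0.24) was among the lower ones. Of 15 complement genes, 1 was higher and 2 lower, 6.67% and 13.3% of the list, counts too small to set it apart. Clusterin (Clu), a chaperone that inhibits the terminal complex, was at 2065 and 1631 against 679 and 806 CPM (1.52 ± 0.13), while C4b was lower (-1.76 ± 0.22; median -0.29 over the list).

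Of 44 transcription factor genes of mesenchyme, 8 were higher and 9 lower, 18.2% and 20.5% against 2.34% and 2.78% of all genes (median -0.16). The counts moved with the setting: 3 and 6 after thinning to 2000 UMIs and 5 and 5 with DESeq2. Against all other fibroblasts they were 5 and 14, and without barcodes rich in rod UMIs 5 and 6. Scleraxis (Scx), the factor that marks tendon progenitors, stood at 105 and 121 against 42.0 and 26.1 CPM (1.88 ± 0.19, adjusted p = 1.56e-04). Meox1 (92.9 and 102 against 22.3 and 19.3 CPM, 2.39 ± 0.16) and Foxp2 (54.3 and 65.5 against 23.3 and 28.0 CPM, 1.42 ± 0.15) were higher, with Foxd1, Pitx1, Runx1, Mkx and Foxc2. The tendon factors Scx and Mkx were among these 8. Scx was higher still in fibroblasts outside the double-positive group with at least 2 Kera UMIs. Zeb2 (44.1 and 59.4 against 173 and 184 CPM, -1.61 ± 0.14) was lower beside Nr2f1, Tfap2b, Nr2f2, Ebf1, Osr2, Twist2, Mitf and Lmx1b. Of 31 fibroblast subtype markers, 5 were higher and 10 lower, 16.1% and 32.3% of the list (median -0.45). The higher ones were Tnmd, Scx, Vit (81.2 and 85.3 against 37.6 and 24.6 CPM, 1.57 ± 0.18), Penk and Pi16. The lower ones included Dpt, Ccl11, Kera, Pdgfra and Thy1.

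Of 29 contractile and force-sensing genes, 2 were higher and 1 lower, 6.90% and 3.45% of the list against 2.34% and 2.78% of all genes (median 0.24). The force-induced matricellular gene Cyr61 stood at 1492 and 1954 against 755 and 936 CPM (1.23 ± 0.10) and the stretch-activated channel gene Piezo2 at 72.0 and 57.9 against 38.5 and 28.0 CPM (1.15 ± 0.16). Desmin (Des) was lower at 3.25 and 19.8 against 47.4 and 37.7 CPM (-1.96 ± 0.46). The smooth muscle genes Acta2 (672 and 751 against 895 and 377 CPM) and Tagln (798 and 738 against 1677 and 872 CPM) did not pass the test.

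A list of receptors of pressure-lowering drugs and of related signals gave 4 higher and 4 lower of 31 (median -0.18). Each share was 12.9%, against 2.34% and 2.78% of all genes. The 4 lower became 1 with DESeq2, 2 after thinning to 2000 UMIs and 9 among barcodes with 3000 to 20000 UMIs. The count of higher genes stayed at 4 in each of these settings. The adenosine A1 receptor gene Adora1 (67.3 and 61.0 against 7.12 and 15 CPM, 2.88 ± 0.25, adjusted p = 6.39e-05), the natriuretic peptide clearance receptor gene Npr3 (90.1 and 92.2 against 19.4 and 13.0 CPM, 2.62 ± 0.19) and angiotensin-converting enzyme (Ace, 44.6 and 34.3 against 11.3 and 8.70 CPM, 2.18 ± 0.23) were higher, with the prostacyclin synthase gene Ptgis. The alpha-2A adrenergic receptor gene Adra2a (2.32 and 7.62 against 20.6 and 18.4 CPM, -1.98 ± 0.46), the prostaglandin receptor gene Ptger4 (3.25 and 12.2 against 13.3 and 31.9 CPM, -1.41 ± 0.31), Ptgs1 (-1.30 ± 0.36) and Pde5a were lower. Of 28 genes linked to glaucoma in people, 4 were higher (Ltbp2, Thbs1, Svep1, Loxl1) and 3 lower (Efemp1, Cyp1b1, Lmx1b), with a median of -0.13. Those were 14.3% and 10.7% of the list.

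Of 25 phagocytosis and lysosome genes, Gas6, a bridge between dying cells and phagocytes, was higher (916 and 605 against 422 and 314 CPM, 1.24 ± 0.10) and Abca8a lower (-1.50 ± 0.26; median 0.04), 4.00% of the list each way. Of 39 antioxidant and metal genes, Prdx4 was higher (1.18 ± 0.15) and ceruloplasmin (Cp, -1.14 ± 0.26) and Mgst1 (-1.07 ± 0.16) lower (median -0.11), 2.56% and 5.13% of the list. With 2.34% and 2.78% called over all genes, these counts of 1 or 2 genes set neither list apart. Of 23 genes of the response to dissociation, 0 passed the test in edgeR and 0 in DESeq2. All the same, 20 lay above 0, 12 had an unadjusted p under 0.05, 8 had an adjusted p under 0.05 at less than a log2 fold change of 1, and their median was 0.36. The part of this response in the differences above was not tested.

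Fibroblasts with 1 of the 2 genes were set beside the double-positive ones as a description, since the groups were defined by those genes. Fibroblasts with Chil1 and no Myoc UMI shared several high and low genes with the double-positive ones. Lypd1 stood at 2.38 and 4.71 CPM in them and Wnt6 at 2.38 and 2.35, Ltbp2 at 233 and 264 and Serpinf1 at 3934 and 2225. Fibroblasts with Myoc and Chil1 under its limit lay nearer to the double-negative ones, with 219.7 and 90.2 CPM of Lypd1, 81.0 and 42.2 of Wnt6, 84.4 and 71.9 of Ltbp2 and 1935 and 1489 of Serpinf1. Chad was lower in both than in double-positive fibroblasts, at 185 and 108 CPM with Chil1 alone and 91.0 and 90.2 CPM with Myoc alone, and Thbs4 likewise, at 169.9 and 82.4 and 152 and 290.0 CPM.

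Among fibroblasts that were not double-positive, those with at least 2 Kera UMIs, 38 and 14 barcodes, held 1158 and 1013 CPM of Tnmd, 1204 and 1285 of Thbs4, 370.5 and 1481 of Comp and 329 and 197 of Scx. Thbs4, Comp and Scx were higher there than in double-positive fibroblasts in both libraries, and Tnmd was lower. Chad at 88.0 and 227 CPM and Ltbp2 at 13.9 and 15.1 were lower in the Kera-positive fibroblasts. Angptl7 stood at 611 and 272 CPM in the Kera-positive ones. These differences rest on few barcodes and were not tested.

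**Figure D4:**
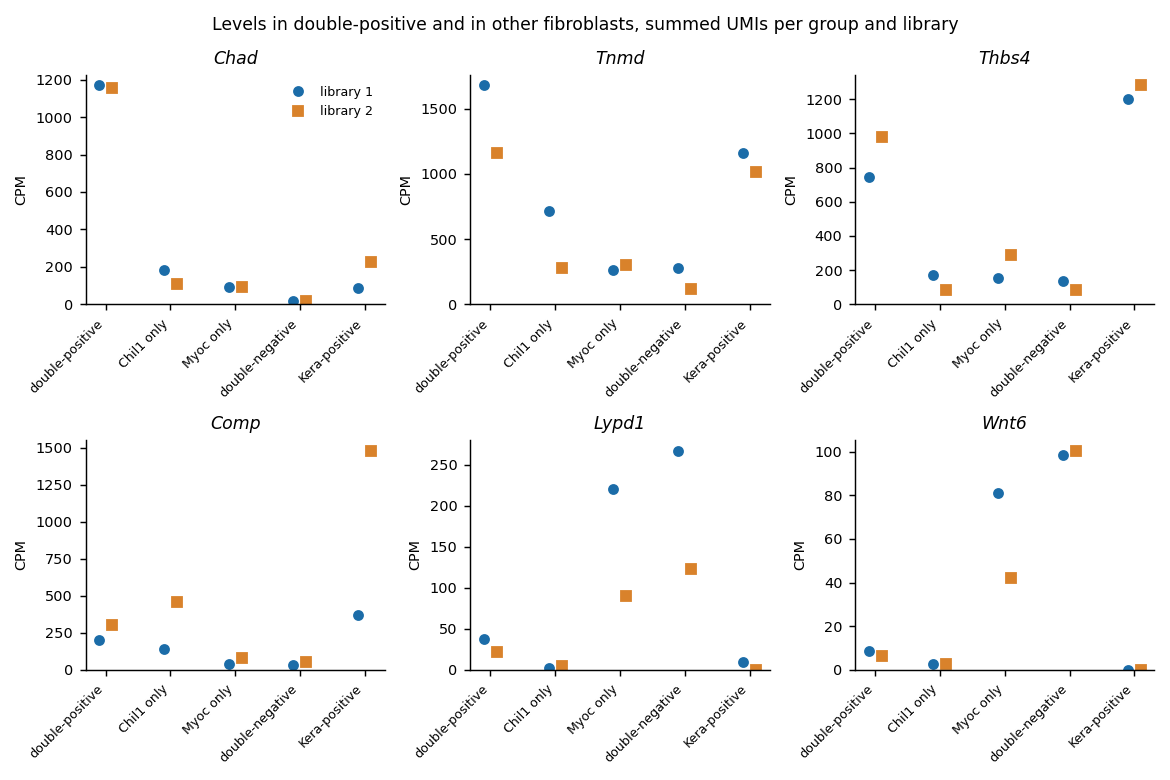
CPM of Chad, Tnmd, Thbs4, Comp, Lypd1 and Wnt6 in double-positive fibroblasts, fibroblasts with Chil1 or Myoc only, double-negative fibroblasts and Kera-positive fibroblasts, which partly overlap the 3 groups between. Circles are library 1 and squares library 2. Among the groups drawn, Chad is above 1000 CPM in the double-positive one alone, Tnmd, Thbs4 and Comp also reach high levels in Kera-positive cells, and Lypd1 and Wnt6 are low with Chil1 and higher without it, except in Kera-positive cells.

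Within the double-positive fibroblasts, depth was made equal by thinning each cell to 2000 UMIs, which left 245 and 129 cells. Ranked by the lower of the libraries' ratios of variance over mean, the genes that varied most between cells were Sparc (22.7 and 26.1), Chil1 (22.0 and 21.4), Cst3 (21.6 and 21), Ptgds (20.0 and 87.9), Dcn (16.8 and 24.4) and Col1a1 (16.6 and 27.6), against a median of 1.05 and 1.06 over 2312 genes. The order differed by library: in library 1 alone Ttr had a ratio of 31.2, above all of these, but 6.44 in library 2. Chil1 itself ranged up to 109 and 137 UMIs in a thinned cell. Ptgds was found in 24.1% and 44.2% of cells and at up to 46 and 158 UMIs, and a UMI of the pigment gene Dct in 10.2% and 21.7%. Dct was also found in rods, at 202 and 352 CPM, so these shares do not count the cells that express it.

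Some pairs of abundant genes varied together from cell to cell. Sparc and Col1a1 had a Spearman rho of 0.856 over the cells of library 1 and 0.825 over those of library 2. Angptl7 followed them, with 0.60 and 0.57 against Sparc and 0.60 and 0.54 against Col1a1. Chil1 and Myoc had a rho of 0.39 and 0.44, while Chil1 and Angptl7 had 0.16 and 0.23. Tagln and Acta2 had 0.53 and 0.44. Mgp did not follow Sparc (-0.02 and 0.06), Col1a1 (-0.04 and -0.05) or Dcn (0.03 and 0.04). Igfbp5 ran opposite to Sparc, with -0.35 and -0.36. Cells of 1 library share their pool and their free RNA, so no p is given.

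The cells were then divided, after these values had been seen, into 70 and 32 with an Angptl7 UMI at equal depth and 175 and 97 without one. Of 538 genes with a mean of at least 0.5 UMIs in 1 of the portions of each library, 15, Angptl7 included by construction, were at least 2-fold higher and 3 at least 2-fold lower in the Angptl7-bearing cells in both libraries, with 0.05 UMIs added to each mean. Thbs4, at 2.43 and 5.41 against 1.21 and 1.64 UMIs per cell, fell just short in library 1 because of that addition. Mean Sparc was 56.9 and 48.4 UMIs per cell with Angptl7 against 20.7 and 14.2 without, and mean Col1a1 24.1 and 34.8 against 7.09 and 8.26. Tnmd was 6.37 and 4.62 against 2.40 and 1.56, Chad 4.01 and 4.25 against 1.81 and 1.96, and Cilp2, a cartilage matrix protein, 1.04 and 2.03 against 0.234 and 0.443. Cilp2 reached the minimum of 0.5 UMIs only in the Angptl7-bearing cells, and so did Ndufa4l2, Matn4, Cpz and Ooep of the 15. Lower in that portion were the pericyte gene Rgs5 (0.129 and 0.188 against 0.709 and 0.814), the glypican gene Gpc3 (0.243 and 0.219 against 0.771 and 0.763) and Cygb, a globin of fibroblasts and pericytes (0.257 and 0.188 against 0.766 and 0.794). Rgs5, Gpc3 and Cygb reached the minimum only in the cells without Angptl7, so they were counted only through the portion where they were high. Igfbp5 was 7.01 and 4.56 against 11.1 and 12.1.

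**Figure D5:**
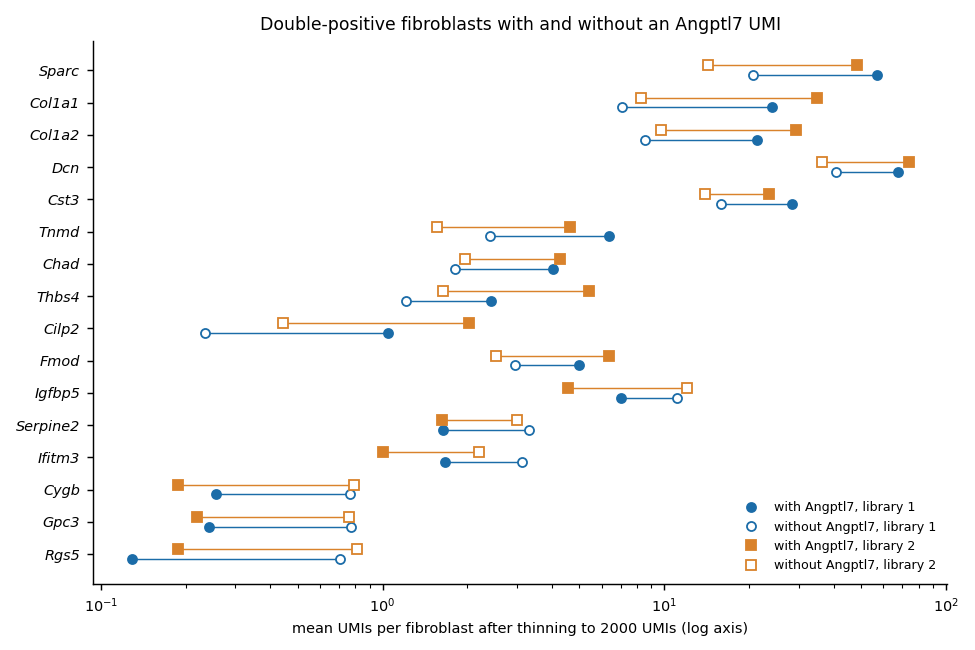
Mean UMIs per cell, on a log axis and after thinning to 2000 UMIs, of 16 genes chosen after their values had been seen, in double-positive fibroblasts with (filled) and without (open) an Angptl7 UMI. Circles are library 1 and squares library 2. Sparc, Col1a1, Col1a2, Dcn, Cst3, Tnmd, Chad, Thbs4, Cilp2 and Fmod lie to the right with Angptl7, and Igfbp5, Serpine2, Ifitm3, Cygb, Gpc3 and Rgs5 to the left, in both libraries.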

How the data were processed

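The authors deposited, for each of the 2 libraries, the UMI counts of each barcode, unnormalised, as a sparse matrix. Its header names software version 3.1.0, per the file headers, and the submitters' processing notes list CASAVA 1.8, Cell Ranger, Seurat, mm10 and GRCm38 without roles. Annotation release and use of strand are not given in the sources used here: 51 of the 90 genes named with a test overlap another annotated gene, 22 of them a protein-coding one, so their reads could be shared. Positions come from a GENCODE annotation of GRCm38, which held 32655 of the 33456 identifiers. No doublet caller was run, and 0 columns of values were left unmapped.

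Members and gene lists (19 lists, 557 genes, 483 tested) were chosen with earlier results of these data known. Counts were summed per library over double-positive, single-positive and double-negative fibroblasts, and the 6 sums were fitted with group and library as terms (edgeR 4.0.16, R 4.3.3; TMM, filterByExpr, quasi-likelihood F test, common dispersion 0.0100). Library was the block because both groups of a library come from the same pool of eyes; differences in 1 library alone used a prior count of 2. The fit was tested on simulated counts. Named were the 12 called genes with the largest change per direction, up to 3 called genes per list and direction, and the trabecular meshwork list. The 15 most abundant genes outside mitochondrial and ribosomal ones were also named. Named genes had the same direction in each library and at least 20 UMIs in the higher group of each, and predicted, RIKEN, mitochondrial, ribosomal, globin and rule genes were left out. Further called genes of a list are named without statistics. A few genes that the rule or the lists hold are counted but not reported here. Alternatives changed the normalisation, tool (DESeq2 1.42.0), filters, gates, depth, comparison group and block. Python 3.11.15 was used for sums and figures.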

Additional observations from a re-analysis of the deposited data

How the results depend on the processing

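The counts of genes called higher and lower, 274 and 326, came from 2 pools, and the cause of their changes below was not tested except where the setting itself gives it. Without the replicate block, which ignores that both groups of a library share a pool, 1 and 0 genes passed in edgeR. Genes called lower numbered 158 with DESeq2, 507 without the filter on low counts, which tests more genes, and 522 among barcodes with 3000 to 20000 UMIs; higher calls there numbered 202, 348 and 346. In the other 10 alternatives with the library as a term, both counts stayed within 1.5 times. Of the 90 named genes, 0 pointed the other way in 1 library alone. The rule for naming required this of all but 1500015O10Rik, so it is no check. Leaving out 1 library leaves no residual degrees of freedom, so no count of calls was possible there. A stricter gate (at least 6 Chil1 and 2 Myoc UMIs) left 197 and 113 double-positive fibroblasts, and leaving out barcodes rich in rod UMIs left 38 in library 2; with those left out, 201 genes were higher and 241 lower. The alternative without barcodes shared by the libraries was added after seeing the data and gave 275 and 326. Pools, not cells, limit the precision: 2 of them allow no check of how eyes or animals vary.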

Other observations

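Among fibroblasts outside the double-positive group, 479 and 267 barcodes held at least 10 Igfbp5 UMIs and fewer than 2 of Kera. In them Chil1 stood at 624 and 185 CPM, Myoc at 362 and 416, Lypd1 at 279 and 136, Wnt6 at 77.3 and 70.5 and Ccl11 at 70.2 and 230.1 CPM. A further 118 and 47 barcodes with a Chodl or Lmx1b UMI and less Igfbp5 and Kera held 197 and 167 CPM of Wnt6, 427 and 146 of Lypd1 and 24.3 and 94.3 of Chad. Lypd1 and Wnt6, which were low in double-positive fibroblasts, were thus found in both groups, at values that were not tested. Meox1, higher in double-positive fibroblasts, was also present in endothelial cells at 96.5 and 72.6 CPM.

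The barcodes that met every limit of the rule but that on Pecam1 and Cdh5 held 3533 and 5009.8 CPM of Chil1 and 89.0 and 528 CPM of Angptl7. Their median depth was 8199.5 and 8509.5 UMIs.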
